A study of Mus musculus with 6 samples.

Results

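The desmosomal cadherins are the transmembrane proteins with which neighbouring epithelial cells hold on to each other at desmosomes. All 9 mouse genes of the family were taken by symbol, the 6 desmogleins Dsg1a, Dsg1b, Dsg1c, Dsg2, Dsg3 and Dsg4 and the 3 desmocollins Dsc1, Dsc2 and Dsc3, out of 41253 symbols with listed reads. Their reads, summed per symbol, were compared between oesophageal squamous cell carcinomas of C57BL/6 mice labelled wild type (WT, Ptpro+/+, n = 3) and of mice labelled Ptpro-KO (Ptpro-/-, n = 3), that is without the receptor-type tyrosine phosphatase Ptpro. Every mouse of both groups had received the carcinogen 4NQO in its drinking water, at a labelled 100 mg/mL, from 6 weeks of age for 16 weeks, and was killed 12 weeks later or on heavy weight loss. The design text gives an age of 34 weeks at collection, and an age tag gives week 6. By the labels the groups differ in genotype only. No untreated oesophagus was analysed here, and the labels do not say which exons the knockout removes.

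A desmosome joins 2 cells through desmogleins and desmocollins whose outer parts meet in the gap between the membranes, while their inner parts bind plakoglobin and plakophilins, and through these desmoplakin, which anchors the keratin filaments. In the epidermis the paralogs are layered: Dsg3 and Dsc3 are known from the lower layers, and Dsg1 and Dsc1 from the upper, differentiating layers. Dsg2 and Dsc2 are also made in simple epithelia and heart. Layer names given to the members below are those of the epidermis. Their layers in the oesophagus cannot be read from these bulk samples. Dsg4 is known mainly from the hair follicle. Dsg1 and Dsg3 are the targets of the autoantibodies of pemphigus, a disease in which keratinocytes lose their adhesion.

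The libraries held 25745240 to 39827467 reads on annotated transcripts, with 13.6% to 17.8% of these on the top 10 genes. Ptpro ran against its labels. Its reads numbered 174, 9 and 67 in WT replicates 1 to 3 and 1094, 1824 and 1921 in Ptpro-KO replicates 1 to 3. Each library labelled Ptpro-KO was above each labelled WT (log2 fold change 3.97, SE 0.85, adjusted p = 0.0617 with edgeR's quasi-likelihood test). Directions below are therefore those of the labels. Of 17663 genes tested, edgeR called 320 up and 405 down under the Ptpro-KO label, and 630 and 294 when libraries were scaled by their totals alone, which moved the median log2 change of all genes from 0.03 to 0.18. Libraries also differed in the tissue they held: summed markers of stomach epithelium (8 genes) reached 17178 CPM (counts scaled to library size) in Ptpro-KO replicate 3 against 0.214 to 29.9 in the other libraries, thyroid Tg stood at 774 CPM in Ptpro-KO replicate 2, and summed markers of striated muscle (8 genes) were at 53.6 CPM in WT replicate 2 and 73.2 in Ptpro-KO replicate 3 against 4857 to 11460 in the other 4.

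Desmosomal cadherin RNA was lower in the carcinomas labelled Ptpro-KO, most of all the Dsg1 copies and Dsc1. The family took 0.476%, 0.537% and 0.654% of all reads in the WT libraries and 0.205%, 0.204% and 0.222% in the Ptpro-KO libraries. Of the 9 genes 8 could be tested, 6 passed as lower (Dsg1a, Dsg1b, Dsg1c, Dsc1, Dsc2 and Dsc3), and Dsg3 and Dsg2 did not pass. None passed as higher, with edgeR or DESeq2, and none was higher at an unadjusted p under 0.05 in edgeR. Over all genes tested 2.29% passed as lower and 1.81% as higher with edgeR. The groups did not overlap for 7 of the 8, all lower in Ptpro-KO, where 15.7% of all genes were lower without overlap and 16.8% higher. The median log2 fold change of the 8 was -1.87, beside 0.03 over all genes tested. Dsg1a, Dsg1b and Dsg1c are near-copies that each count in these numbers. With their reads summed into 1 feature, 4 of 6 passed as lower with edgeR, against 403 of 17661 over all genes. In these bulk samples fewer squamous cells and less RNA per cell cannot be told apart.

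**Figure D1:**
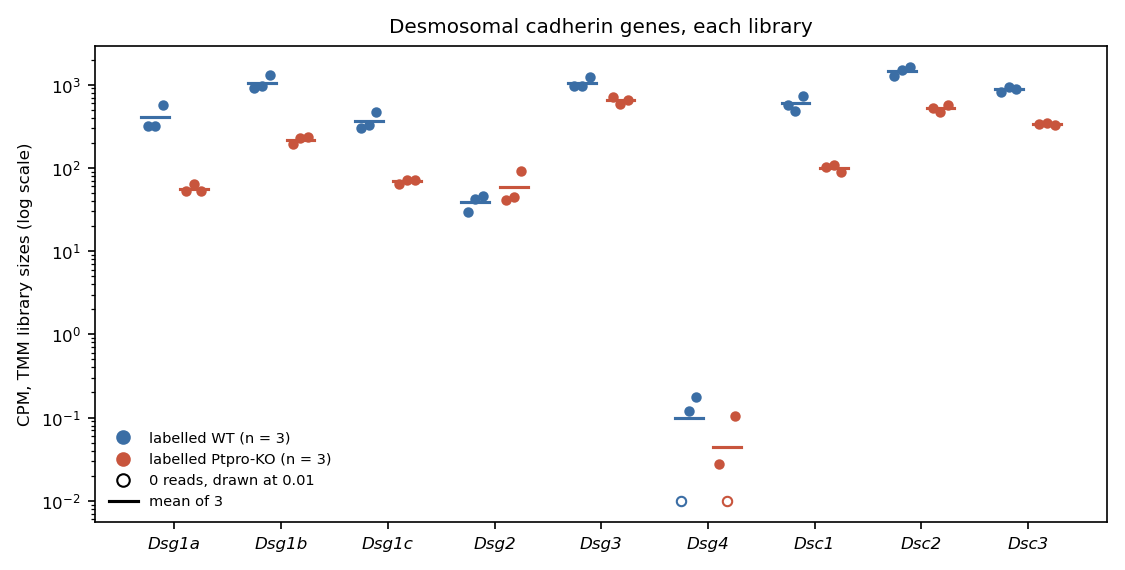
Level of each desmosomal cadherin gene in each library, in CPM on a log axis, with libraries labelled WT in blue and Ptpro-KO in red, in replicate order, and a line at each group's mean of 3. Open points mark 0 reads. The groups stand apart for all genes but Dsg2 and Dsg4, and Dsg4 lies below 0.2 CPM in every library.

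Dsg1, the desmoglein of the upper epidermal layers, is carried in the mouse by 3 adjacent near-copies. Dsg1b, the most abundant, stood at 903, 953 and 1292 CPM in the WT libraries and at 195, 229 and 232 in the Ptpro-KO libraries. Every Ptpro-KO library was far below every WT library, and WT replicate 3 was the highest. The WT mean was 1049 ± 212 CPM and the Ptpro-KO mean 219 ± 20.7 CPM (SD, n = 3 each). This was a log2 change of -2.26 (SE 0.19, edgeR adjusted p = 0.0125), or 4.80-fold lower.

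Dsg1a stood at 322, 320 and 573 CPM in WT and at 52.1, 63.4 and 53.5 CPM in Ptpro-KO. It had the most negative log2 change of the family, -2.85 (SE 0.28, edgeR adjusted p = 0.0132), from 405 ± 145 to 56.3 ± 6.16 CPM, with WT replicate 3 well above the other WT libraries. Dsg1c stood at 305, 325 and 467 CPM against 64.4, 72.0 and 72.3, again with no overlap and with WT replicate 3 highest. Its log2 change was -2.39 (SE 0.20, edgeR adjusted p = 0.0125). With the reads of the 3 copies added together before the fit the log2 change was -2.40 (SE 0.21, edgeR adjusted p = 0.0127), so the decrease does not rest on how reads were divided among the copies.

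How much RNA each copy gives is uncertain. In GENCODE M21 the coding sequence of Dsg1a was 97.0% identical to that of Dsg1b and 95.9% to that of Dsg1c, and Dsg1b and Dsg1c were 95.4% identical, while all other pairs in the family lay between 53.6% and 66.3%. Of all 50-nt windows of the transcript, 49.0% for Dsg1b, 35.0% for Dsg1a and 29.6% for Dsg1c occurred unchanged in another gene, against at most 0.357% for any other member. The authors' 2 kinds of table divide the copies differently. In the WT libraries Dsg1c took 20.1% ± 0.198 of the 3 copies' reads in the transcript counts and 8.18% ± 0.0506 of their scaled counts in the gene table, and Dsg1a took 21.9% ± 2.38 and 35.1% ± 2.82. Dsg1b led in both, with 58.0% ± 2.29 and 56.7% ± 2.87. In the Ptpro-KO libraries Dsg1a took a smaller share in both tables, 16.4% ± 1.28 and 28.2% ± 1.34, without overlap with the WT libraries in either.

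**Figure D2:**
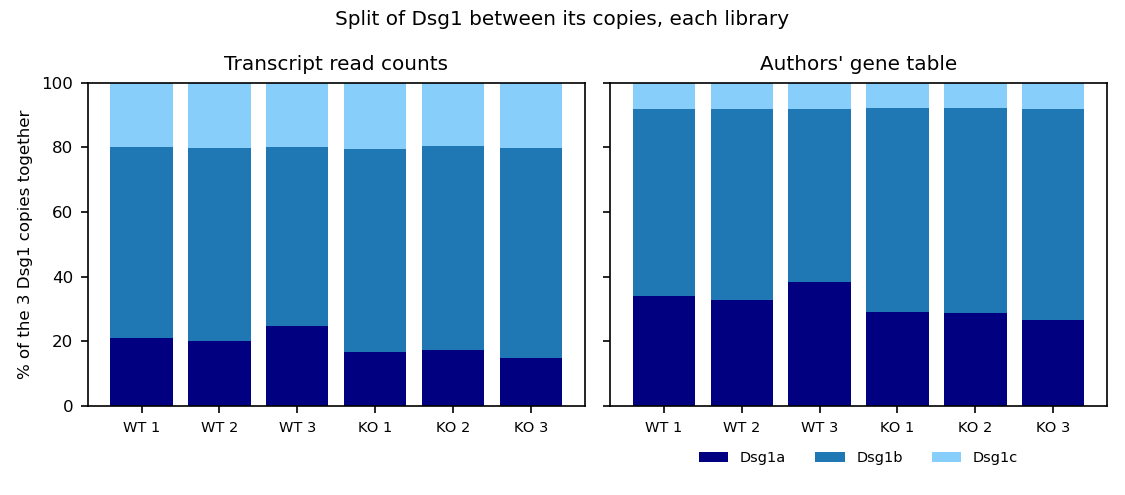
Share of Dsg1a, Dsg1b and Dsg1c in their sum, in percent, for each library (WT 1 to 3 labelled WT, KO 1 to 3 labelled Ptpro-KO), from the transcript read counts (left) and the authors' gene table (right). Dsg1b is the largest in every library of both, while Dsg1c holds about 20% on the left and 8% on the right.

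Dsc1, the desmocollin of the upper epidermal layers, moved like the Dsg1 copies. It stood at 572, 487 and 724 CPM in WT and at 102, 108 and 88.7 CPM in Ptpro-KO. No libraries of the groups overlapped, and the mean fell from 595 ± 120 to 99.7 ± 10.04 CPM. The log2 change was -2.58 (SE 0.19, edgeR adjusted p = 0.0125), or 5.96-fold lower, from 1 listed transcript whose sequence was shared with no other gene at 50 nt.

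The more widely expressed desmocollin Dsc2 was the most abundant of the family in WT, at 1272, 1495 and 1624 CPM, and stood at 525, 468 and 576 CPM in Ptpro-KO. Its groups were apart, and its log2 change was -1.49 (SE 0.16, edgeR adjusted p = 0.0157), or 2.80-fold lower. Of its 4 listed transcripts, Dsc2-201 held 98.5% to 98.8% of the Dsc2 reads in every library, so the change was that of 1 isoform as the authors assigned reads. Dsc3, the desmocollin of the lower epidermal layers, stood at 814, 937 and 881 CPM in WT and 335, 345 and 325 CPM in Ptpro-KO. Its log2 change of -1.39 (SE 0.12, edgeR adjusted p = 0.0125) was 2.62-fold lower, with all Ptpro-KO libraries within 20 CPM of each other.

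Dsg3, the desmoglein of the lower epidermal layers, had the smallest difference among the abundant members and did not pass the test. It stood at 973, 954 and 1245 CPM in WT and at 705, 580 and 656 CPM in Ptpro-KO. Each Ptpro-KO library was below each WT library, but the distance was small beside that of the other members. The log2 difference was -0.71 (SE 0.16, edgeR adjusted p = 0.0706), from 1057 ± 163 to 647 ± 62.8 CPM. DESeq2 called it lower (log2 change -0.72, SE 0.17, adjusted p = 0.000679), which made 7 of 9 members called lower by that tool, against 7.06% of the genes it tested called lower and 8.72% higher.

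Dsg2, which is also made in simple epithelia, was the only tested member with a positive log2 difference. It stood at 29.3, 41.7 and 45.7 CPM in WT and at 40.6, 44.7 and 91.6 CPM in Ptpro-KO. The groups overlapped: 2 Ptpro-KO libraries lay within the WT range, and Ptpro-KO replicate 3 alone was above it. The log2 difference was 0.60 (SE 0.36, edgeR adjusted p = 0.358), and 0.13 without Ptpro-KO replicate 3. Of the Dsg2 reads 95.0% to 97.2% were listed under 1 of 3 transcripts, Dsg2-201. An antisense gene, Gm16090, overlaps the 3′ end of Dsg2 and had 1 read in all libraries together.

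Dsg4, the hair follicle desmoglein, was at the limit of detection, with 0, 3 and 5 reads in WT and 1, 0 and 4 in Ptpro-KO. It did not pass the filter on low counts, and no fold change is given because both groups lay around or under the 3 reads that a count of 0 allows. The authors' gene table lists it at 30.6, 46.1 and 48.8 scaled counts in WT and 33.5, 17.3 and 21.6 in Ptpro-KO, more than the transcript counts hold. On log2(FPKM + 1) from that table limma gave a Dsg4 difference of -0.20 (SE 0.11, adjusted p = 0.306). In that fit the same number of members, 6, passed as lower, against 2.05% of all genes. Of the hair follicle markers Krt25, Krt27, Krt71, Krt31, Krt35, Krt85 and Tchh, 6 were analysed here and only Tchh had enough reads to test. Tchh was lower in Ptpro-KO (48.9 ± 10.3 to 16.4 ± 5.61 CPM, log2 change -1.58, edgeR adjusted p = 0.0484).

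The 9 genes form 1 cluster on chromosome 18 with no other protein-coding gene between them, chr18:19960930-20604521 in GRCm38 (mm10), a span of 643.6 kb. The desmocollins are on the minus strand: Dsc3 at chr18:19960930-20002351, Dsc2 at chr18:20030633-20059554 and Dsc1 at chr18:20084184-20114871. The desmogleins follow on the plus strand: Dsg1c at chr18:20247340-20285031, Dsg1a at chr18:20310811-20343350, Dsg1b at chr18:20376729-20410196, Dsg4 at chr18:20436175-20471821, Dsg3 at chr18:20510274-20547459 and Dsg2 at chr18:20558074-20604521. In that order the 4 genes in the middle of the cluster that could be tested, Dsc1 and the Dsg1 copies, had log2 changes of -2.26 or below, those at the desmocollin end -1.39 and -1.49, and those at the desmoglein end -0.71 and 0.60. The next protein-coding genes past Dsg2 did not pass as lower. Ttr, the thyroid hormone carrier of plasma, had 513 reads in Ptpro-KO replicate 3 and 0 to 18 in the others. B4galt6, a galactosyltransferase of sphingolipid synthesis, had a log2 difference of 1.26 (edgeR adjusted p = 0.0966), and Trappc8, a subunit of a vesicle tethering complex, of -0.21 (adjusted p = 0.199). On the desmocollin side Cdh2 (N-cadherin), 3151.7 kb away, had a mean of 0.602 CPM in WT and 1.43 CPM in Ptpro-KO (log2 difference 1.23, edgeR adjusted p = 0.262). Aqp4, a water channel, differed by 0.59 (edgeR adjusted p = 0.849), and Chst9, a sulfotransferase, had at most 10 reads in any library and was not tested.

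**Figure D3:**
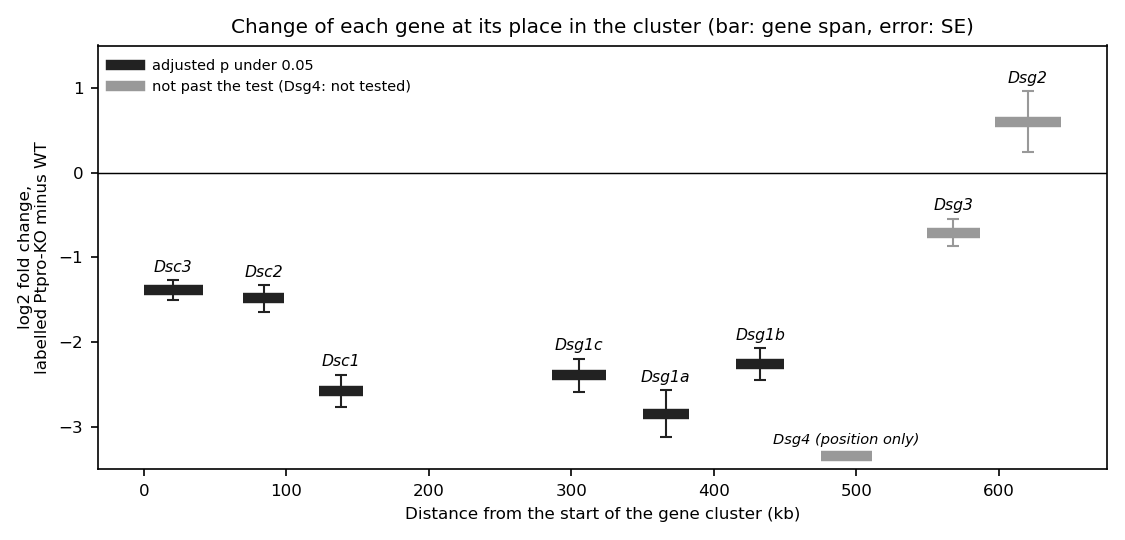
Log2 fold change of each desmosomal cadherin gene, libraries labelled Ptpro-KO minus WT, at the gene's place in the cluster, in kb from its first base. Bars span the gene, error bars are the SE of the fit, and black marks an adjusted p under 0.05. The middle of the cluster lies lowest and Dsg2, at the right end, is the only gene above 0.

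The order of the paralogs differed between the labels. Levels were compared between genes as RPKM, reads scaled to transcript length and library total. In WT the order was Dsc2 (303 ± 43.6 RPKM), Dsg1b (251 ± 53.3), Dsg3 (244 ± 39.3), Dsc3 (157 ± 15.7), Dsc1 (149 ± 30.1), Dsg1c (84.9 ± 21.4), Dsg1a (67.7 ± 24.8), Dsg2 (6.62 ± 1.59) and Dsg4 (0.0275 ± 0.0250). The first 3 overlapped one with the next in their ranges over libraries, as did Dsc3 with Dsc1 and Dsg1c with Dsg1a, so only the steps from Dsg3 to Dsc3, from Dsc1 to Dsg1c, from Dsg1a to Dsg2 and from Dsg2 to Dsg4 exceeded the spread. In Ptpro-KO the order was Dsg3 (165 ± 12.1 RPKM), Dsc2 (119 ± 12.1), Dsc3 (66.2 ± 2.91), Dsg1b (57.9 ± 6.91), Dsc1 (27.7 ± 2.93), Dsg1c (17.9 ± 1.599), Dsg2 (10.97 ± 5.36), Dsg1a (10.4 ± 1.37) and Dsg4 (0.0134 ± 0.0167). There only Dsg2 overlapped with its neighbours Dsg1c and Dsg1a. The places of the Dsg1 copies rest on how their reads were divided. In the authors' FPKM values Dsg1a stood above Dsg1c in every library, at 119 ± 39.5 and 57.4 ± 14.2 in WT. In Ptpro-KO it stood at 18.3 ± 1.39, with Dsg2 at 12.7 ± 5.89 and Dsg1c at 10.8 ± 0.931. By FPKM, Dsg1a (up to 165) also overlapped with Dsc1 (from 158) in WT, and Dsc3 with Dsg1b in Ptpro-KO. The length the files list for Dsg3, 4108 nt, is shorter than its 6212 nt in GENCODE M21, and its place in both orders rests on that length. At the longer one, tried after the data had been seen, Dsg3 stood at 144, 150 and 191 RPKM in WT, where it overlapped with Dsc3. In Ptpro-KO it stood at 115, 100.0 and 112 RPKM, below Dsc2 in each library though with overlapping ranges, so that Dsc2 came first in both groups.

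The share of Dsg1 in the desmoglein pool was smaller in Ptpro-KO, and that of Dsg3 larger. The 3 Dsg1 copies together made up 59.7%, 61.1% and 63.5% of summed desmoglein RPKM in WT and 29.3%, 36.7% and 32.8% in Ptpro-KO. Dsg3 made up 39.4%, 37.7% and 35.6% in WT and 67.9%, 59.9% and 61.0% in Ptpro-KO, and Dsg2 1.01% ± 0.172 and 4.13% ± 1.80. These shares do not overlap between the labels for any of the 3. At the longer Dsg3 length Dsg3 made up 30.1%, 28.6% and 26.7% in WT and 58.3%, 49.7% and 50.9% in Ptpro-KO, again without overlap, and the Dsg1 copies 70.4% ± 1.65 and 41.8% ± 4.03. Summed desmoglein RPKM itself was 655 ± 140 in WT and 262 ± 13.1 in Ptpro-KO, so the larger share of Dsg3 stood within a smaller pool. The authors' FPKM table, which divides the Dsg1 reads differently, gave nearly the same Dsg1 shares, 61.8% ± 1.72 and 33.5% ± 3.68. Among the desmocollins, whose summed RPKM was 609 ± 72.9 and 213 ± 8.02, the share of Dsc1 was 24.5% ± 3.53 in WT and 13.04% ± 1.76 in Ptpro-KO, that of Dsc2 49.6% ± 2.002 and 55.8% ± 3.79, and that of Dsc3 25.9% ± 2.35 and 31.1% ± 2.05.

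**Figure D4:**
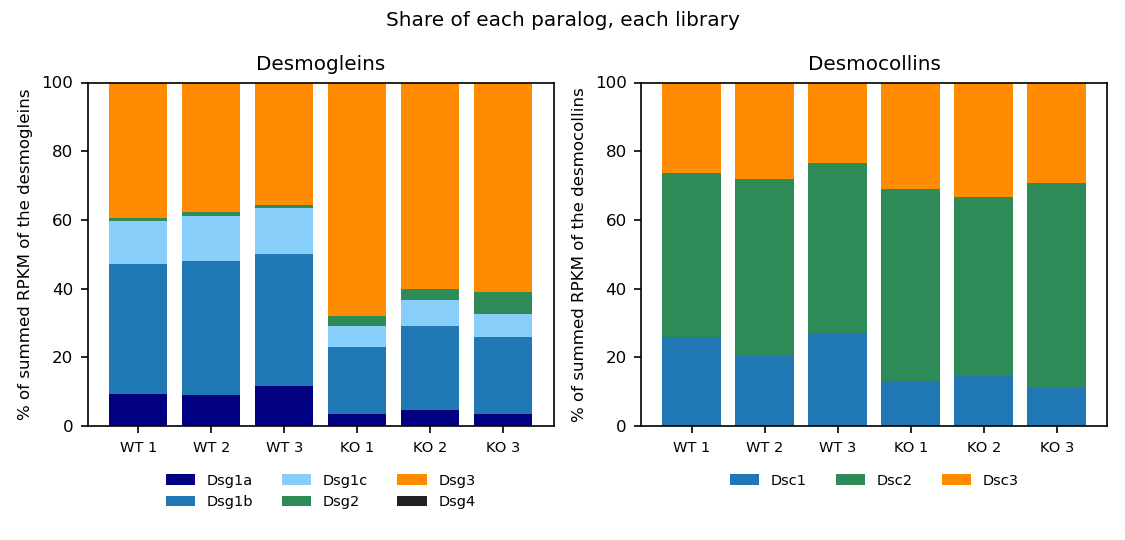
Share of each paralog in the summed RPKM of the desmogleins (left) and of the desmocollins (right), in percent, for each library (WT 1 to 3 labelled WT, KO 1 to 3 labelled Ptpro-KO). Dsg3 fills 35.6% to 39.4% of the desmogleins in the WT libraries and 59.9% to 67.9% in the Ptpro-KO libraries at the transcript length the files list, and Dsg4 is too low to be seen.

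Paralog use was tested as 6 log2 ratios of RPKM within each library, which do not depend on how libraries are scaled. Dsg1a over Dsg3 was 0.239, 0.243 and 0.333 in WT and 0.0534, 0.0789 and 0.0589 in Ptpro-KO, a log2 difference of -2.09. Dsc1 over Dsc3 was 0.988, 0.731 and 1.16 in WT and 0.428, 0.441 and 0.383 in Ptpro-KO, a log2 difference of -1.18. The paralog named for the upper epidermal layers was thus lower relative to that of the lower ones in all 3 Ptpro-KO libraries of both families. Dsg2 over Dsg3 was 0.0222, 0.0319 and 0.0270 in WT and 0.0419, 0.0561 and 0.101 in Ptpro-KO, a log2 difference of 1.21. Summed desmogleins over summed desmocollins was 1.07 in WT and 1.23 in Ptpro-KO on average, a log2 difference of 0.21, which was 0.06 with overlapping groups (exact permutation p = 0.6) at the longer Dsg3 length. At the listed lengths these 4 ratios did not overlap between the labels, and each had an exact two-sided permutation p of 0.1, the smallest that 3 against 3 allows, and 0.15 after Benjamini-Hochberg adjustment over the 6, so none could pass 0.05 in this design. Dsc2 over Dsc3 overlapped (mean 1.92 in WT and 1.80 in Ptpro-KO, log2 difference -0.10, exact permutation p = 0.5, adjusted 0.5).

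Some markers of the squamous epithelium itself passed as lower. Of 7 basal markers (Krt5, Krt14, Krt15, Trp63, Itga6, Itgb4, Col17a1) 2 passed as lower, the basal keratins Krt5 (log2 change -1.21, edgeR adjusted p = 0.0367) and Krt14 (-1.41, adjusted p = 0.035), and the list summed to 21573 to 29677 CPM in WT and 9297 to 12438 in Ptpro-KO. Of 10 markers of the upper oesophageal layers (Krt4, Krt13, Krt6a, Krt6b, Krt16, Sprr1a, Sprr3, Ivl, Krtdap, Sbsn) 5 passed as lower, among them the stress keratin Krt6b (-1.92, edgeR adjusted p = 0.0125) and Krtdap, a secreted protein of differentiating keratinocytes (-1.74, adjusted p = 0.0132), with sums of 46182 to 61357 and 15122 to 20592 CPM. The groups overlapped for Krt15, Itgb4, Krt4 and Ivl, and Ivl (involucrin) had the 1 positive log2 difference of these lists (1.04, 5.30 ± 1.47 to 10.9 ± 6.99 CPM, edgeR adjusted p = 0.365). Neither list had a gene at 0. Krt13, a defining keratin of the oesophageal lining, stood at 7075 to 16018 CPM in WT and 2404 to 5873 CPM in Ptpro-KO. Its groups were apart, but it did not pass (log2 difference -1.33, edgeR adjusted p = 0.141), and neither did Krt4 (adjusted p = 0.508). The part of these markers in the lower desmosomal cadherin RNA was not tested.

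Per unit of basal keratin, the family as a whole was not separable between the labels. Summed RPKM of the 9 members over that of Krt5 and Krt14 was 0.129, 0.0974 and 0.140 in WT and 0.0883, 0.113 and 0.116 in Ptpro-KO. The groups overlapped (log2 difference -0.20, exact permutation p = 0.4, adjusted 0.48 over the 6 ratios). Taken gene by gene, a description added after the data had been seen, the members spread to both sides. Dsg1a (log2 difference -1.45), Dsc1 (-1.22), Dsg1c (-1.02) and Dsg1b (-0.90) stayed lower relative to Krt5 and Krt14. Dsc2 (-0.14) and Dsc3 (-0.04) lay close to 0, and Dsg3 (0.64) and Dsg2 (1.86) were higher relative to these keratins. Krt5 and Krt14 themselves had log2 changes of -1.21 and -1.41, beside a median of 0.03 over all genes. A ratio difference of 0 is therefore not an unchanged level, and Dsg3 by itself had a log2 difference of -0.71.

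**Figure D5:**
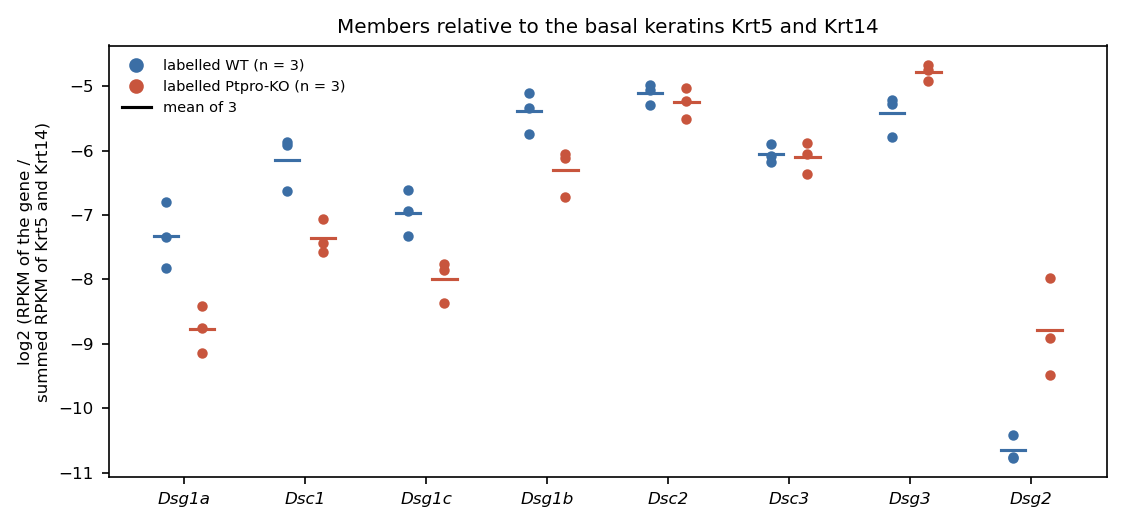
Log2 ratio of each member's RPKM to the summed RPKM of the basal keratins Krt5 and Krt14, for each library labelled WT (blue) and Ptpro-KO (red), with a line at each mean of 3, ordered by the difference. By this ratio Dsg1a, Dsc1, Dsg1c and Dsg1b are lower in all Ptpro-KO libraries, and Dsc2 and Dsc3 overlap. Dsg3 and Dsg2 are higher in all Ptpro-KO libraries relative to these keratins, which were themselves lower there.

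Genes of simple epithelium moved the other way. Of 8 markers (Krt7, Krt8, Krt18, Krt19, Krt20, Epcam, Cldn4, Cldn7) 4 passed as higher: the simple-epithelial keratins Krt8 (0.585 ± 0.173 to 383 ± 246 CPM, edgeR adjusted p = 0.0125), Krt18 (3.62 ± 1.32 to 216 ± 38.1, adjusted p = 0.0125) and Krt19 (0.720 ± 0.885 to 294 ± 96.7, adjusted p = 0.0216), and the adhesion molecule Epcam (50.3 ± 21.9 to 279.35 ± 124, adjusted p = 0.0434). Krt7 and Cldn7 were higher without overlap but did not pass (edgeR adjusted p = 0.0623 and 0.0873). The groups overlapped for Krt20 (edgeR adjusted p = 0.427) and Cldn4 (adjusted p = 0.372). The list summed to 94.8 to 223 CPM in WT and 1214 to 2337 in Ptpro-KO, with no gene at 0 in either group. Dsg2 was highest in Ptpro-KO replicate 3, the library with 17178 CPM of stomach markers, of which Pgc, Gkn2 and Gif had 0 reads in every WT library. Some stromal markers also differed. Of 6 fibroblast markers (Col1a1, Col1a2, Col3a1, Dcn, Lum, Pdgfra) 2 passed as higher, the collagen genes Col1a1 (log2 change 2.71, edgeR adjusted p = 0.0126) and Col1a2 (2.25, adjusted p = 0.0434). Col3a1 and Pdgfra were higher without overlap but did not pass. The groups overlapped for Dcn (log2 difference 0.39, edgeR adjusted p = 0.819) and Lum (0.87, adjusted p = 0.572). The list summed to 345 to 1858 CPM in WT and 2924 to 4614 in Ptpro-KO. Of the 5 macrophage markers analysed (Csf1r, Cd68, Mrc1, Fcgr3, Cd163) none passed with edgeR, though all 5 were higher at an unadjusted p under 0.05. How many of all genes were higher at that unadjusted p was not counted. These 5 markers summed to 51.6 to 202 CPM in WT and 387 to 872 in Ptpro-KO. Endothelial markers (Pecam1, Cdh5, Kdr, Tek, Vwf) overlapped, at 149 to 242 and 156 to 258 CPM. The part of these cells in the values of Dsg2 and of the other members was not tested.

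The partners of the desmosomal cadherins inside the cell were mostly lower, by less than the Dsg1 copies. Of 9 plaque and plakin genes 6 passed as lower and 1 as higher, with a median log2 fold change of -0.97. Desmoplakin (Dsp), which ties the plaque to keratin, stood at 6769, 6928 and 8399 CPM in WT and at 3503, 3105 and 3076 in Ptpro-KO (log2 change -1.19, SE 0.17, edgeR adjusted p = 0.0288). Its groups were apart, as were those of plakoglobin (Jup), the direct binding partner of the cadherin tails (-0.97, adjusted p = 0.0293). The plakophilins of stratified epithelium, Pkp1 (-1.26, edgeR adjusted p = 0.0371) and Pkp3 (-1.09, adjusted p = 0.031), were lower, as were Perp, a desmosomal membrane protein and p63 target (-1.21, adjusted p = 0.0323), and the plakin envoplakin (Evpl, -0.79, adjusted p = 0.0438). Periplakin (Ppl, -0.48, edgeR adjusted p = 0.3) and Pkp4 (0.44, adjusted p = 0.343) did not pass.

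Pkp2, the plakophilin of simple epithelia and heart, was the plaque gene that rose. It stood at 3.68, 2.47 and 2.24 CPM in WT and at 10.5, 12.97 and 16.2 CPM in Ptpro-KO. All 3 Ptpro-KO libraries were above all WT libraries (log2 change 2.24, SE 0.29, edgeR adjusted p = 0.0248). Its level in Ptpro-KO, 13.2 ± 2.83 CPM, was still far under that of Pkp1 (727 ± 102 CPM) and Pkp3 (196 ± 34.0 CPM).

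Of 8 classical cadherins and catenins, the genes of the adherens junction and their relatives, 1 passed as higher and none as lower with edgeR, with a median log2 fold change of 0.15. The difference between these genes and the desmosomal ones was not tested. P-cadherin (Cdh3), the 1 gene of the list lower at an unadjusted p under 0.05, stood at 157, 224 and 154 CPM in WT and at 90.2, 100.0 and 99.9 CPM in Ptpro-KO. Its groups were apart, with a log2 difference of -0.88 (SE 0.17, edgeR adjusted p = 0.051), larger in size than that of Dsg3. E-cadherin (Cdh1), named like Cdh3 after its values were seen, stood at 368, 383 and 369 CPM in WT and at 375, 376 and 481 CPM in Ptpro-KO (log2 difference 0.14, edgeR adjusted p = 0.584). The most abundant gene of the list, β-catenin (Ctnnb1), differed by 0.16 (edgeR adjusted p = 0.72). Cdh11, a cadherin of mesenchymal cells, was higher (10.8 ± 2.38 to 39.8 ± 5.50 CPM, log2 change 1.88, edgeR adjusted p = 0.0182).

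Of 8 proteases and inhibitors that act on desmosomal cadherins 2 passed as lower. Spink5, which encodes the inhibitor that restrains kallikreins from cutting Dsg1, stood at 1421, 1577 and 2250 CPM in WT and at 335, 267 and 305 CPM in Ptpro-KO (log2 change -2.53, SE 0.23, edgeR adjusted p = 0.0125). Its groups were apart, and its log2 change was near that of Dsc1 (-2.58). The kallikrein Klk14 was also lower (-1.27, edgeR adjusted p = 0.024). Of 12 transcription factors linked to these genes, 11 were tested and 2 passed as lower: Grhl1, a grainyhead factor known to act on Dsg1 (130 ± 6.40 to 72.1 ± 7.89 CPM, log2 change -0.85, edgeR adjusted p = 0.0253), and Snai2, a zinc finger repressor (-1.34, adjusted p = 0.024). The most abundant of them, the epithelial master regulator Trp63, stood at 501 ± 79.2 and 271 ± 107 CPM (log2 difference -0.89, edgeR adjusted p = 0.144). Cdx2 had 1 read in all. Of the 11 tested, 8 had a negative log2 difference and 3 a positive one. Snai1, named after its values were seen, was higher without overlap but did not pass. It stood at 0.902 ± 0.531 CPM in WT and 3.09 ± 0.534 in Ptpro-KO (log2 difference 1.76, edgeR adjusted p = 0.103).

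Across the 6 libraries the genes most like the summed family, out of 5735 tested genes of at least 5 mean log2 CPM, were Zfp185, Tmprss13, Blmh, Polr3g and Rdh12. Their centred log2 CPM differed from that of the family by a root mean square of 0.109 to 0.126. The closest, Zfp185, stood at 98.1, 107 and 144 CPM in WT and at 47.8, 41.5 and 41.6 in Ptpro-KO, with WT replicate 3 highest as in the family. For Dsg2 the closest were Ick, Tinagl1, Galnt7, Tmem164 and Gcc2, at 0.171 to 0.197. Each of these 5 had its highest value in Ptpro-KO replicate 3, for example 124 CPM of Galnt7 against 35.3 to 47.3 in the other libraries. Like Zfp185, they were picked for likeness over these same 6 libraries, so the shared peaks follow from the choice.

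The edgeR calls rest on 6 libraries and move with single ones. With WT replicate 2, with WT replicate 3 or with Ptpro-KO replicate 2 left out, none of the 8 members passed. In each of these fits 0 of all genes tested passed. The edgeR adjusted p of the 6 called members lay between 0.0524 and 0.0864, and 7 members were lower at an unadjusted p under 0.05. How many of all genes were lower at that unadjusted p was not counted, so the 7 have no background beside them. Without Ptpro-KO replicate 1 only 4 passed, and Dsg1a (adjusted p = 0.0598) and Dsc2 (0.0622) did not. In that fit 52 of 18004 genes passed as lower. Without Ptpro-KO replicate 3, the library with stomach markers, or without WT replicate 1, all 6 passed. Over all genes 243 of 18017 passed as lower without Ptpro-KO replicate 3, and 82 of 18278 without WT replicate 1. The log2 changes of the 6 called members stayed between -3.00 and -1.35 whichever library was left out.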

How the data were processed

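Total RNA of 6 carcinomas was sequenced by Illumina, per the labels. With 3 mice a group in the design text, each library counts as 1 mouse. No source used here says whether strand was kept. Reads were aligned with Bowtie 0.12.2 and mm10 was the build, per the submitters' processing notes. The files deposited per sample hold whole read counts per Ensembl transcript and the authors' RPKM values. No source used here says how the authors assigned reads shared by isoforms or paralogs. The deposited gene tables hold the authors' FPKM values and a scaled gene signal, which has decimals and was kept out of the count tests. Each of these holds 2 further columns that were left out.

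Counts and RPKM were summed per symbol (100249 transcripts, 14 of the family). Entries without a gene name held 0 reads. Counts were tested with edgeR 4.0.16 (filterByExpr with a minimum count of 10, TMM scaling, quasi-likelihood test, R 4.3.3), adjusted by Benjamini-Hochberg over 17663 genes at 0.05. Genes had a common biological coefficient of variation of 0.40. CPM uses TMM library sizes. Alternatives were DESeq2 1.42.0, and limma 3.58.1 on voom values and on log2 FPKM with pseudocounts of 1 and 0.1. The code was checked on simulated counts. Libraries of a group were no duplicates (chi-square per degree of freedom 66.9 to 307). Positions, identity and 50-nt windows come from GENCODE M21 (GRCm38), which held 97.2% of the transcripts. No sequences are printed.

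The named genes are the members, all plaque genes, called and most abundant members of the other lists, the 3 neighbours on each side, the 5 genes most like the family and like Dsg2, and Ptpro. Others were named after their values were seen. The members and lists were chosen with earlier results of these data known.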

Additional observations from a re-analysis of the deposited data

How the results depend on the processing

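With 18 alternatives for each of the 6 called members (17 for the Dsg1 copies), every log2 change stayed negative. Leaving out 1 library at a time gave 0 to 6 members called lower, against 6 with all libraries, and 0 when WT replicate 2, or WT replicate 3, or Ptpro-KO replicate 2 was out. Over all genes, 320 passed as higher and 405 as lower. These counts were 0 to 253 and 0 to 243 with 1 library left out, 1724 and 1396 with DESeq2, 64 and 122 with a term for the sex read from the counts, and 234 and 287 with no filter on low counts. The cause was not tested. As a set, same-numbered libraries did not pair (correlations of deviations 0.539, 0.0803 and -0.243). The 0.539 of the replicate 1 libraries was the highest between any WT and any Ptpro-KO library. They alone shared a prefix in their names that no other library had, and both read as female from the counts. With the replicate block 6 members were called lower, and 133 genes were higher and 104 lower in all. Differences of the paralog ratios are the same under the block by construction, so it is no check of them. The smallest possible exact p there is 0.25. With a term for a prefix in the library names 6 members were called lower, and 392 genes were higher and 332 lower in all. With the sex term 6 members were likewise called lower. The difference of Dsc2 over Dsc3 ran from -0.19 to 0.0009039 with 1 library left out, turning positive without Ptpro-KO replicate 2 (exact permutation p = 1). Desmogleins over desmocollins in the authors' FPKM table gave 0.18 (exact permutation p = 0.2). Ptpro passed as higher with library totals (edgeR adjusted p = 0.0488), DESeq2 (3.89e-06), limma-voom (0.0418) and limma on log2(FPKM + 1) (0.0265). Depth limits Dsg4 alone among the members: 3 reads correspond to at most 0.1196 CPM in any library.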

Other observations

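Of 5 markers of the cornifying epidermis (Krt1, Krt10, Krt2, Lor, Flg) 4 were tested, and none passed with edgeR in either direction, with 1, Lor, lower at an unadjusted p under 0.05. Krt1, the keratin of the upper epidermal layers, stood at 19.5, 24.5 and 254 CPM in WT and at 130, 2.89 and 163 CPM in Ptpro-KO. Flg, a filament-aggregating protein of the granular layer, stood at 30.5, 29.5 and 337 CPM in WT and at 271.6, 13.1 and 93.2 CPM in Ptpro-KO. Lor, a protein of the cornified envelope, stood at 137, 81.0 and 129 CPM in WT and at 83.9, 59.3 and 32.4 CPM in Ptpro-KO (log2 difference -0.98, edgeR adjusted p = 0.182), lowest in Ptpro-KO replicate 3. Krt1 and Flg were lowest in Ptpro-KO replicate 2, where Dsg1b stood at 229 CPM, between the 195 and 232 CPM of the other Ptpro-KO libraries. These genes were chosen after their values were seen. Their relation to the members was not tested.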
